A study of Homo sapiens with 6 samples.

Results

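The transcripts described here are those of 55 genes of mitosis and the G2/M transition of the cell cycle. The genes were chosen by symbol, as mitotic cyclins and kinases and as genes of the spindle checkpoint, kinetochore, spindle motors and condensin. No threshold was set on their values, but earlier results of these data were known when the list was made. The counts below therefore describe this list and are no independent test of it. They are 55 of the 58870 genes in the deposited count table, and all 55 were among the 15088 genes abundant enough to be tested. RNA of wild-type (WT) HEK-293T cells was sequenced beside that of a HEK-293T line in which THUMPD1 had been knocked out with CRISPR-Cas9 (THUMPD1 KO), with 3 libraries per genotype. THUMPD1 helps the acetyltransferase NAT10 to acetylate cytidine in tRNA for leucine and serine. Both lines were grown in DMEM without any other treatment named, and the methods describe single-cell sorting of the edited cells, so the KO line may stand for 1 clone. The effect of losing THUMPD1 and other differences between this line and the WT cells therefore cannot be told apart. The labels do not say whether the replicates came from separate cultures, so p-values measure only the spread between these libraries, which may be technical.

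HEK-293T cells derive from human embryonic kidney and carry the SV40 large T antigen, which binds p53 and the retinoblastoma family of proteins. In a dividing cell, most mitotic genes are transcribed late, in G2. In G0 and G1 they are held down by the DREAM complex, and in G2 they are activated by MYBL2 and FOXM1, both acting with the MuvB core. CDK1 bound to cyclin B then drives entry into mitosis, the spindle checkpoint holds back separation of the sister chromatids until kinetochores are attached, and the anaphase-promoting complex (APC/C) with CDC20 releases it by marking cyclin B and securin for destruction.

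The libraries held 32225646 to 44099898 expected counts each, and expression is stated as counts-per-million values (CPM). Over all tested genes, 2066 were higher and 1959 lower in THUMPD1 KO at an adjusted p under 0.05 (limma-voom, Benjamini-Hochberg adjustment over all 15088 genes). THUMPD1 itself was at 77.3, 84.6 and 80.8 CPM in WT and at 10.2, 12.0 and 11.0 CPM in THUMPD1 KO, 13.6% of the WT mean (log2 fold change −2.87, adjusted p = 3.166e-08 by limma-voom). An exact two-sided permutation test of its CPM gave p = 0.1, the smallest that 3 libraries against 3 allow. Markers of the HEK-293 lineage were present, with NEFL at 53.6 to 75.9 CPM and VIM at 258 to 312 CPM, although PAX2 reached only 1.84 to 4.63 CPM and LHX1 1.14 to 2.55 CPM. PTPRC, CD3E, ALB, DCN, VWF, CDH5 and PECAM1, which mark blood, liver, connective tissue and vessel cells, were at 0.113 CPM or less in every library, and COL1A2 had no count. COL1A1 was at 9.002 to 17.0 CPM and APOA1 at 0.0454 to 0.180 CPM.

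Transcripts of the 55 listed genes were mostly slightly more abundant in THUMPD1 KO. Of 125 other mitosis genes, described further below, 12.8% were called higher by limma-voom, with a median log2 fold change of 0.033. Of the 55 genes, 19 were called higher and 0 lower at an adjusted p under 0.05 (limma-voom), where 13.7% of all tested genes were called higher and 13% lower. The called increases ran from 0.14 (CENPF) to 0.37 (MKI67) on the log2 scale, that is from 10.3 to 29.5%, and 4 of them (MKI67, ASPM, AURKA and BIRC5) reached 1.2-fold. No member was lower at an unadjusted p under 0.05 in limma-voom, and 28 were higher. At that threshold 18.4% of all tested genes were lower and 20.9% higher. With edgeR and DESeq2, 0 members were called lower, against 2088 and 1994 of the 15088 tested genes. At an unadjusted p under 0.05, edgeR and DESeq2 had 0 and 1 members lower, against 2973 and 2722 of all tested genes. The 36 members not called included 30 with a positive log2 fold change. In RNA from whole cultures, a larger share of cells in G2 or mitosis and more of each mRNA per cell cannot be told apart.

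The median log2 fold change of the 55 genes was 0.12, an 8.42% higher level, against a median of 0.016 over all tested genes. Their quartiles were 0.060 and 0.19, and those of all tested genes −0.12 and 0.14. The listed genes thus covered a narrower range that lay mostly above 0, with 49 of 55 positive (89.1%) against 53.6% of all tested genes. The 6 with a negative value were AURKB, BUB1B, KIF11, NUSAP1, PRC1 and SMC2. These transcripts are abundant, with the lowest count in any library at 688 reads (18.8 CPM) and a median expression rank at the 89.1 percentile of tested genes. They also had smaller errors, with a median SE of 0.047 against 0.070 for all genes. Among the 8186 tested genes within the same range of average expression, 14.4% were called higher and the median log2 fold change was 0.016. That set holds every gene between the lowest and highest member and was not matched to the members in level or SE.

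**Figure D1:**
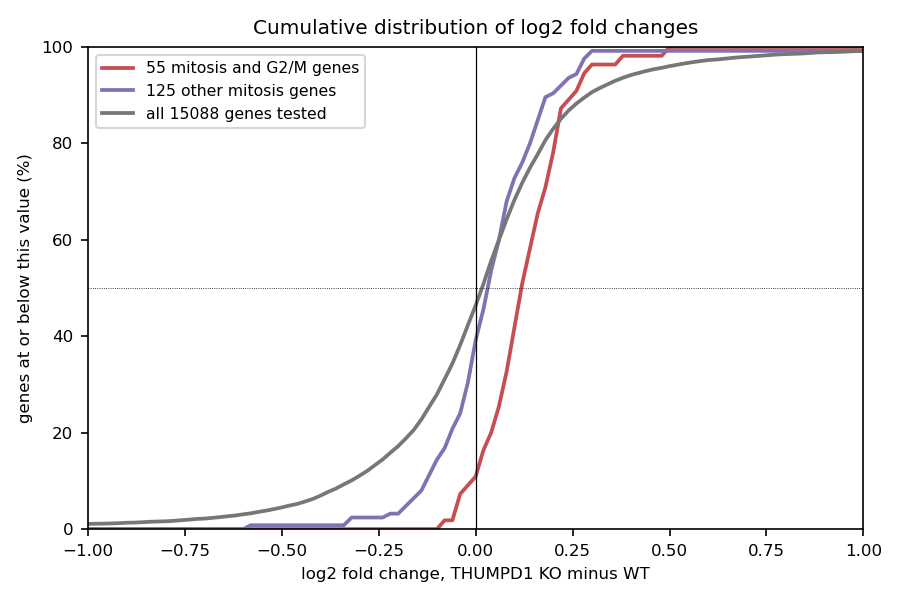
Cumulative distributions of log2 fold changes, THUMPD1 KO minus WT, with the log2 fold change on the horizontal axis and the percentage of genes at or below it on the vertical axis. The curve of the 55 mitosis and G2/M genes crosses 50% at a median of 0.12, those of 125 other mitosis genes and of all 15088 tested genes at 0.033 and 0.016.

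The libraries separated by genotype when the 55 genes were read together. Their summed level was 8226, 8609 and 8542 CPM in the 3 WT libraries and 9179, 9669 and 9467 CPM in the 3 THUMPD1 KO libraries, or 0.823 to 0.861% and 0.918 to 0.967% of all counts. Every KO library was above every WT library. The median deviation of the members from their own WT mean was −0.012, 0.015 and 0.0018 on the log2 scale in WT replicates 1, 2 and 3, and 0.13, 0.14 and 0.12 in the KO replicates. Over all tested genes, with 0.5 CPM added, the medians were 0.029, −0.011 and −0.012 in WT and 0.046, 0.017 and 0.022 in KO. For single genes, all 3 KO libraries lay above all 3 WT libraries in 32 members, where this held for 24.5% of all tested genes, and all 3 lay below in 2 members (KIF11 and PRC1), where 17.6% of tested genes did so. The genotypes overlapped in the other 21.

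**Figure D2:**
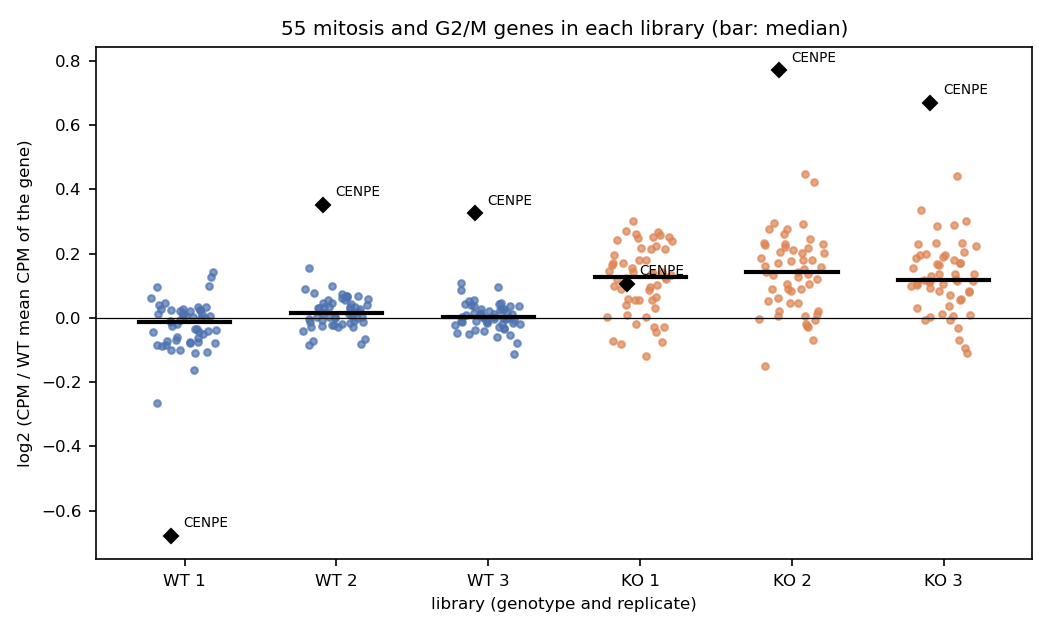
Level of each of the 55 genes in each library relative to its WT mean, as log2 of the CPM ratio. Each point is a gene, the horizontal bar is the median, and CENPE is marked with a diamond. The medians are near 0 in WT and at 0.12 to 0.14 in THUMPD1 KO, and CENPE lies far below the other genes in WT replicate 1.

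WT and KO libraries carry the same replicate numbers. Deviations from the genotype means correlated at 0.299 and 0.366 between libraries numbered 1 and 2. For number 3 the correlation was only 0.135, not far above the 0.0834 of WT replicate 2 with KO replicate 3. The pairing is thus uncertain for number 3, and calls with the replicate block depend on it. With the replicate number as a block in the fit, 30 of the 55 members were called higher and 0 lower, where 18.4% of all tested genes were called higher and 16.7% lower. All 19 genes called without the block were among the 30. Added to them were INCENP, CDC20, CENPE, NUF2, ZWINT, KIF23, KIF2C, TPX2, ANLN, NCAPD2 and MYBL2. Within the 3 pairs of equal number, 40 members were higher in the KO library each time, which was so for 35.5% of all tested genes. Another 3 members were lower each time, but the matching share of all tested genes was not counted, so nothing is read from this count. Other tests called fewer: edgeR called 13 members higher (11.8% of all tested genes) and DESeq2 16 (11.1%). Without KO replicate 2 the count fell to 11, the lowest for any omitted library, where 8.75% of all tested genes were called higher.

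**Figure D3:**
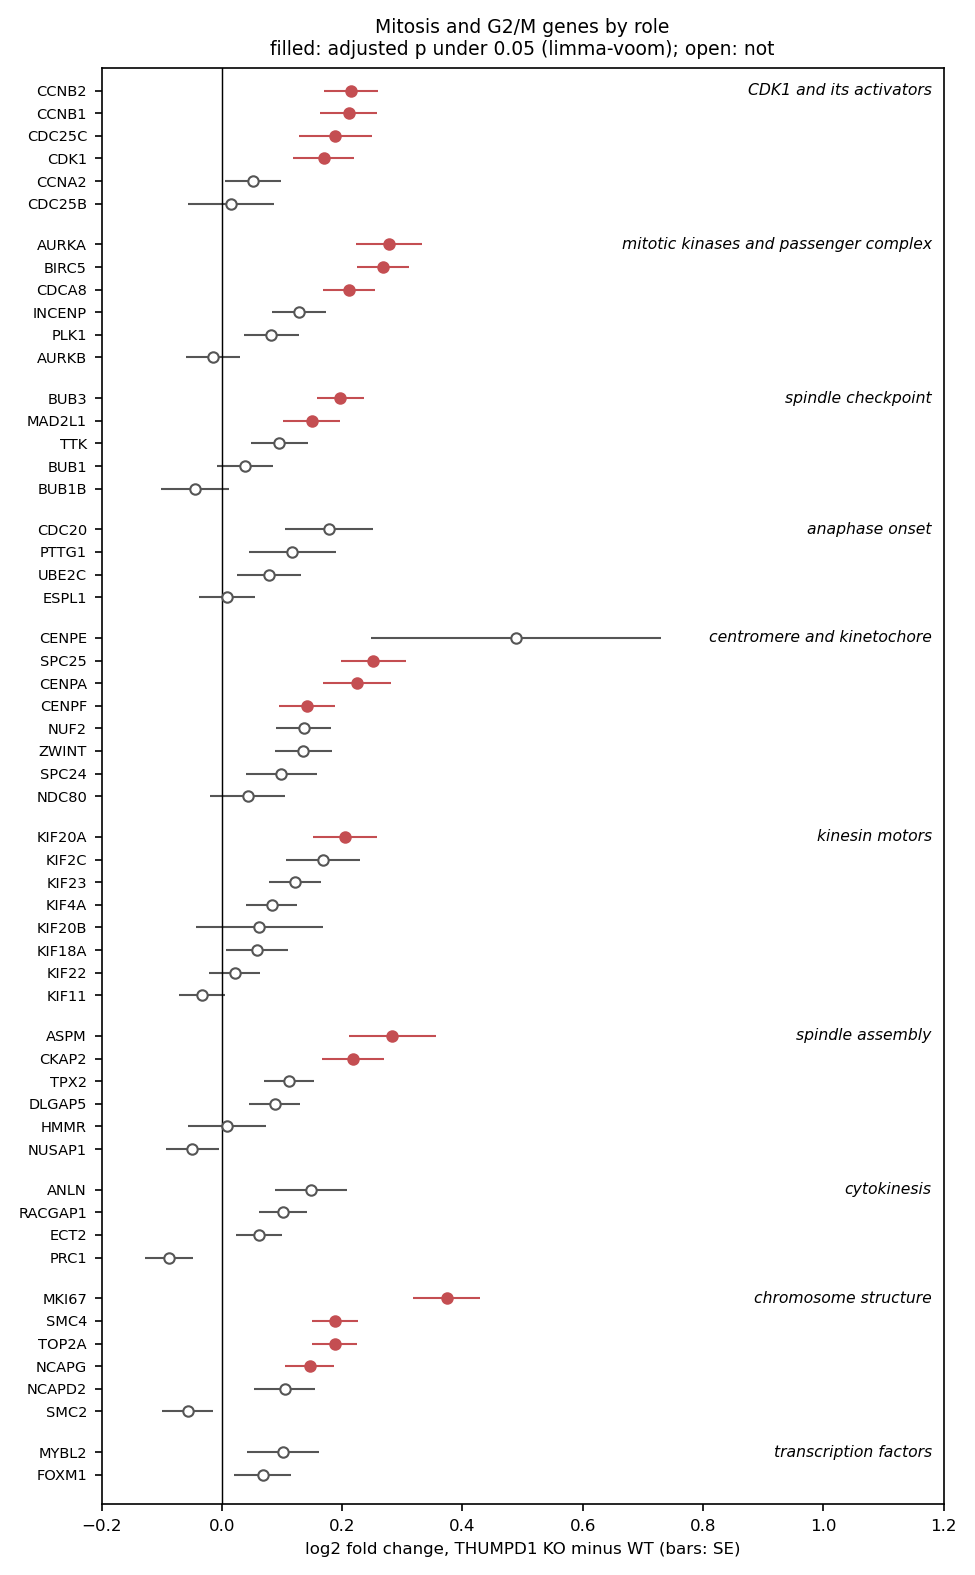
Log2 fold changes, THUMPD1 KO minus WT, of the 55 genes grouped by role. Bars are the standard error of the limma-voom fit (3 libraries per genotype), filled points passed an adjusted p of 0.05 and open points did not. The 19 filled points lie between 0.14 and 0.37, and the open points between −0.088 (PRC1) and 0.49 (CENPE).

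Of CDK1 and its activators, 4 of 6 were called higher, where 13.7% of all tested genes were. The counts of single roles, here and below, are small and are given as a description. CDK1, the kinase that drives entry into mitosis, was at 111, 118 and 126 CPM in WT and 132, 139 and 134 CPM in THUMPD1 KO (log2 fold change 0.17, SE 0.051, adjusted p = 0.0302 by limma-voom). CCNB1, cyclin B1, its main partner, was at 143, 153 and 155 CPM in WT and 169, 185 and 173 CPM in THUMPD1 KO (log2 fold change 0.21, SE 0.047, adjusted p = 0.00789). CCNB2, the second B-type cyclin, was at 46.98, 47.00 and 46.9 CPM in WT and 56.2, 53.3 and 54.2 CPM in THUMPD1 KO (log2 fold change 0.21, SE 0.045, adjusted p = 0.00548). The genotypes did not overlap for any of these genes, and the WT values of CCNB2 were almost equal. CDC25C, the phosphatase that removes the inhibitory phosphates from CDK1, was at 19.3, 18.8 and 19.05 CPM in WT and 22.8, 20.3 and 21.3 CPM in THUMPD1 KO (log2 fold change 0.19, SE 0.061, adjusted p = 0.0414). Its genotypes did not overlap either, but the margin between the highest WT and the lowest KO library was small. The increase passed the threshold in every one of 17 alternative fits for CCNB1 and CCNB2, in 10 of 17 for CDK1 and in only 4 of 17 for CDC25C, where the adjusted p reached 0.113 for CDK1 and 0.196 for CDC25C. CCNA2 (cyclin A2) and the related phosphatase CDC25B had log2 fold changes of 0.051 and 0.015 and were not called.

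Of the mitotic kinases and the chromosomal passenger complex, 3 of 6 were called higher (13.7% of all tested genes). AURKA, the kinase of centrosomes and spindle poles, was at 71.1, 79.7 and 76.03 CPM in WT and 89.4, 91.5 and 95.4 CPM in THUMPD1 KO (log2 fold change 0.28, SE 0.055, adjusted p = 0.00402 by limma-voom). BIRC5 (survivin), which holds the passenger complex at centromeres, was at 153, 163 and 162 CPM in WT and 197, 187 and 194 CPM in THUMPD1 KO (log2 fold change 0.27, SE 0.043, adjusted p = 0.00126). CDCA8 (borealin), its partner in the complex, was at 55.3, 54.05 and 55.96 CPM in WT and 64.1, 63.8 and 63.1 CPM in THUMPD1 KO (log2 fold change 0.21, SE 0.043, adjusted p = 0.00483). All 3 were higher in each KO library than in any WT library, and each was called in all 17 alternative fits. The kinase of the same complex, AURKB, was at 77.3, 76.4 and 74.04 CPM in WT and 73.6, 74.5 and 78.97 CPM in THUMPD1 KO (log2 fold change −0.015, SE 0.045, adjusted p = 0.833), and the genotypes overlapped. INCENP, the scaffold that binds AURKB, had a log2 fold change of 0.13 and missed the threshold (adjusted p = 0.0553 by limma-voom), but was called with the replicate block (adjusted p = 0.0351). PLK1, which acts at centrosomes, kinetochores and the midbody, was at 132, 131 and 129 CPM in WT and 136, 139 and 149 CPM in THUMPD1 KO (log2 fold change 0.082, SE 0.046, adjusted p = 0.208). Its KO libraries were all above the WT libraries, but the difference was not called. It passed in 1 of 17 alternative fits, with the replicate block and with trends along GC content and length removed (adjusted p = 0.0459 by limma-voom).

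**Figure D4:**
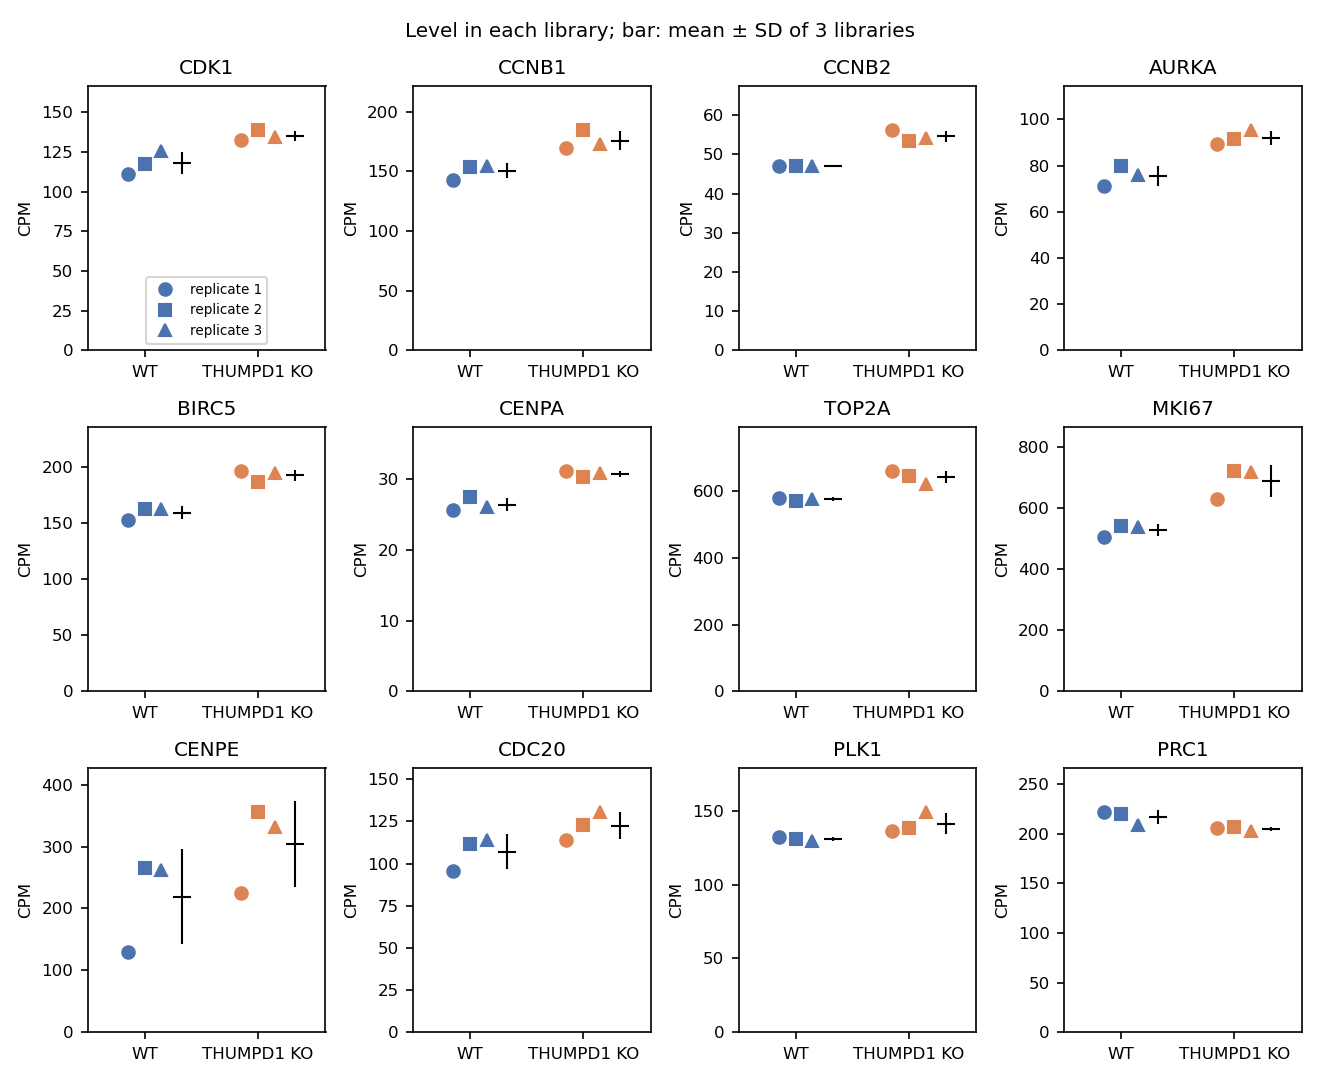
Level in each library, in CPM on axes that start at 0, for 12 members, with replicates 1, 2 and 3 shown as circles, squares and triangles and the mean ± SD of 3 libraries as bars. For the first 8 genes, CDK1 to MKI67, all KO libraries are above all WT libraries. CENPE overlaps between genotypes, and the lowest KO value of CDC20 is only just above its highest WT value. Both genes are lowest in replicate 1 of each genotype. PLK1 is slightly higher and PRC1 slightly lower in KO, neither called.

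The spindle checkpoint had 2 genes of 5 called higher (13.7% of all tested genes). BUB3, which brings the BUB1 and BUBR1 proteins to kinetochores, was at 195, 192 and 187 CPM in WT and 223, 222 and 215 CPM in THUMPD1 KO (log2 fold change 0.20, SE 0.039, adjusted p = 0.00418 by limma-voom). MAD2L1, which binds and restrains CDC20, was at 137, 149 and 149 CPM in WT and 159, 170.0 and 159 CPM in THUMPD1 KO (log2 fold change 0.15, SE 0.047, adjusted p = 0.0385). BUB3 was called in all 17 alternatives and MAD2L1 in 7. BUB1, the checkpoint kinase, was at 150.4, 156 and 147 CPM in WT and 149, 163 and 159.9 CPM in THUMPD1 KO (log2 fold change 0.039, SE 0.047, adjusted p = 0.574), with overlapping genotypes. BUB1B (BUBR1) had a log2 fold change of −0.045 and the kinase TTK (MPS1) of 0.10, and neither was called. BUB1B shares its locus and strand with PAK6 and a readthrough transcript of both, so its count may hold reads of these.

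No gene of anaphase onset was called among 4 by limma-voom, edgeR or DESeq2, and 1 had an unadjusted p under 0.05 in limma-voom. Of all tested genes, limma-voom called 13.7% higher, and 20.9% were higher at an unadjusted p under 0.05. Nothing is read from so small a group. CDC20, the activator of the APC/C, was at 95.4, 112 and 114 CPM in WT and 114, 123 and 131 CPM in THUMPD1 KO (log2 fold change 0.18, SE 0.073, adjusted p = 0.0934 by limma-voom). WT replicate 1 was the lowest, WT replicate 3 and KO replicate 1 were almost equal, and with the replicate block the increase was called (adjusted p = 0.00738). UBE2C, a ubiquitin-conjugating enzyme of the APC/C, PTTG1 (securin) and ESPL1 (separase), which cleaves cohesin, had log2 fold changes of 0.078, 0.12 and 0.0080. Reads counted to annotated pseudogenes of UBE2C amounted to at most 11.0% of its own count, the highest such share among the 17 members with named copies.

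All 8 centromere and kinetochore genes had a positive log2 fold change (53.6% of all tested genes), and 3 were called higher (13.7% of all tested genes). CENPA, the histone H3 variant that marks centromeres, was at 25.7, 27.5 and 26.1 CPM in WT and 31.2, 30.4 and 30.9 CPM in THUMPD1 KO (log2 fold change 0.23, SE 0.056, adjusted p = 0.0136 by limma-voom). SPC25, a subunit of the NDC80 complex that binds microtubules, was at 27.1, 28.7 and 28.4 CPM in WT and 33.8, 33.2 and 32.99 CPM in THUMPD1 KO (log2 fold change 0.25, SE 0.055, adjusted p = 0.00660). CENPF, a large protein of the outer kinetochore, was at 475, 494 and 480.4 CPM in WT and 503, 557 and 529 CPM in THUMPD1 KO (log2 fold change 0.14, SE 0.047, adjusted p = 0.0441). The genotypes did not overlap for these genes, and CENPF, with the highest level of the group, had the smallest called increase of all members and passed in 6 of the 17 alternatives. The other NDC80 subunits NDC80, NUF2 and SPC24 had values of 0.043, 0.14 and 0.10, and ZWINT, an outer kinetochore protein, of 0.14. NUF2 and ZWINT lay next to the threshold (adjusted p = 0.0501 and 0.0544 by limma-voom).

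CENPE, the kinesin that carries chromosomes to the spindle equator, had the largest log2 fold change of the 55 genes and was not called. Its level was 130.3, 266 and 261 CPM in WT and 224, 356 and 332 CPM in THUMPD1 KO (log2 fold change 0.49, SE 0.241, adjusted p = 0.159 by limma-voom). Replicate 1 was low in both genotypes, by 1.02 on the log2 scale in WT and by 0.61 in KO against the mean of replicates 2 and 3. Within pairs of the same number the KO to WT ratio was 1.72, 1.34 and 1.27, and with the replicate block the increase was called (adjusted p = 0.000517 by limma-voom). Without CENPE, the same replicate 1 ratio ran from −0.40 to 0.22 over the members in WT and from −0.24 to 0.24 in KO. In 23 members replicate 1 was below the other replicates in both genotypes, and in 16 it was above in both. What sets replicate 1 apart was not tested.

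Of the kinesin motors, 1 of 8 was called higher, near the 13.7% of all tested genes, and nothing is read from this count. KIF20A (MKLP2), which moves the passenger complex to the central spindle, was at 71.3, 77.7 and 75.3 CPM in WT and 83.1, 89.6 and 87.7 CPM in THUMPD1 KO (log2 fold change 0.20, SE 0.053, adjusted p = 0.0160 by limma-voom). All KO libraries were above all WT libraries. Its locus overlaps CDC23 and BRD8 on the opposite strand, and CDC23, an APC/C subunit, was also called higher (0.14 on the log2 scale). KIF2C (MCAK), which depolymerizes microtubules, and KIF23 (MKLP1), which bundles them at the midzone, had values of 0.17 and 0.12 and were called only with the replicate block or in some of the other alternatives. KIF4A, KIF20B, KIF18A and KIF22 had values of 0.083, 0.062, 0.059 and 0.022. KIF11 (Eg5), which pushes spindle poles apart, was slightly negative at −0.033, with all KO libraries below all WT libraries, and was not called.

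Of the spindle assembly genes, 2 of 6 were called higher (13.7% of all tested genes). ASPM, a spindle pole protein, was at 392, 442 and 433 CPM in WT and 466, 566 and 520.1 CPM in THUMPD1 KO (log2 fold change 0.28, SE 0.072, adjusted p = 0.0147 by limma-voom). CKAP2, which promotes microtubule growth, was at 249.5, 282 and 277 CPM in WT and 313, 330.1 and 306 CPM in THUMPD1 KO (log2 fold change 0.22, SE 0.052, adjusted p = 0.0102). Both were higher in every KO library than in any WT library. Leaving out KO replicate 2 ended both calls, and leaving out KO replicate 3 that of ASPM. TPX2, the activator of AURKA, had a log2 fold change of 0.11, DLGAP5 (HURP) of 0.088, HMMR of 0.0083 and NUSAP1 of −0.049, none called.

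None of the 4 cytokinesis genes was called by limma-voom, edgeR or DESeq2, where limma-voom called 13.7% of all tested genes higher. At an unadjusted p under 0.05 in limma-voom, 2 (ANLN and RACGAP1) were higher, as were 20.9% of all tested genes. Nothing is read from these small counts. ANLN (anillin), which organizes the contractile ring, had a log2 fold change of 0.15, and RACGAP1 and ECT2, which activate RhoA at the cell equator, of 0.10 and 0.062. PRC1, which bundles the microtubules of the central spindle, had the lowest value of all members, −0.088. PRC1 was at 222, 219.9 and 209 CPM in WT and 206, 207 and 203 CPM in THUMPD1 KO, so that every KO library was below every WT library, and it was called lower only when trends along GC content and length were removed.

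The chromosome structure group had 4 genes of 6 called higher (13.7% of all tested genes), and it included the most significant member. MKI67 (Ki-67), which coats mitotic chromosomes and keeps them apart, was at 507, 542 and 539 CPM in WT and 629, 722 and 719 CPM in THUMPD1 KO (log2 fold change 0.37, SE 0.056, adjusted p = 0.000844 by limma-voom). TOP2A, the topoisomerase that untangles sister DNA, was at 581, 572 and 578 CPM in WT and 661, 646 and 622 CPM in THUMPD1 KO (log2 fold change 0.19, SE 0.038, adjusted p = 0.00443). SMC4, a core subunit of condensin, was at 472, 479 and 483 CPM in WT and 527, 557 and 537 CPM in THUMPD1 KO (log2 fold change 0.19, SE 0.039, adjusted p = 0.00498). For each of these genes the KO libraries lay above the WT libraries, and for MKI67 the lowest KO library was 87 CPM above the highest WT library. NCAPG, a condensin I subunit, was at 154, 153 and 151 CPM in WT and 173, 173 and 164 CPM in THUMPD1 KO (log2 fold change 0.15, SE 0.040, adjusted p = 0.0217), again without overlap. NCAPD2, another condensin I subunit, had a log2 fold change of 0.10. SMC2, the partner of SMC4 in condensin, had one of −0.057, and neither was called.

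The transcription factors that activate these genes in G2 were not called by limma-voom, edgeR or DESeq2, and neither had an unadjusted p under 0.05 in limma-voom. Of all tested genes, limma-voom called 13.7% higher, and 20.9% were higher at an unadjusted p under 0.05. FOXM1 was at 150.5, 149 and 156 CPM in WT and 165, 152 and 164 CPM in THUMPD1 KO (log2 fold change 0.068, SE 0.047, adjusted p = 0.313 by limma-voom). MYBL2 (B-MYB) was at 234, 207 and 216 CPM in WT and 254, 221 and 232 CPM in THUMPD1 KO (log2 fold change 0.10, SE 0.060, adjusted p = 0.241). The genotypes overlapped for both genes, and MYBL2 was called only in fits with the replicate block (adjusted p = 0.0457 without the GC and length correction). FOXM1 was called in 1 of 17 alternatives, the replicate block with the GC and length correction (adjusted p = 0.0477 by limma-voom).

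Because mitotic promoters share short elements, the promoter windows of the members were read from RefSeq (GRCh38.p14), from 250 bases before to 50 after the transcription start. Windows were found for 47 of the 55 genes, and TTK, TPX2, BIRC5, UBE2C, FOXM1, AURKA, RACGAP1 and BUB3 had none. The cell cycle genes homology region (CHR), at which MuvB binds, was searched as TTTGAA or TTCGAA, and the CCAAT box, bound by NF-Y, as CCAAT, both on either strand. The 120 bases before the start are shown for 3 genes of the CDK1 complex, for PLK1 and for CENPA and MKI67, to set called genes beside the uncalled PLK1. Each is written 5′ to 3′ on the strand of the gene, with matches to either element in capitals.
CDK1: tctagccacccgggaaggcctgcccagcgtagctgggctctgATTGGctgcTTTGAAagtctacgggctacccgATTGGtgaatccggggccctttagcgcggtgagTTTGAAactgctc
CCNB1: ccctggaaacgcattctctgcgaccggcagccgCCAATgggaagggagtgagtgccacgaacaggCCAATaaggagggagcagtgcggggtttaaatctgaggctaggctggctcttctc
CCNB2: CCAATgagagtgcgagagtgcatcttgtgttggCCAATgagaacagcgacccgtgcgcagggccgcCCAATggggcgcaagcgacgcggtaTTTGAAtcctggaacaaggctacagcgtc
PLK1: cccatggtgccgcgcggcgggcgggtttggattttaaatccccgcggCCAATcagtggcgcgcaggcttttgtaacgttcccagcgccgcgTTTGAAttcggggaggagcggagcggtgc
CENPA: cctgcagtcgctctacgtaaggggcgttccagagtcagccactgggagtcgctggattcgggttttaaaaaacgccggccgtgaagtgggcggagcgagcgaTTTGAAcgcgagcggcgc
MKI67: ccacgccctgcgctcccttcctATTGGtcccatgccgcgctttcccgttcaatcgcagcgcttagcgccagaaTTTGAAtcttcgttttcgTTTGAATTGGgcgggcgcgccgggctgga
They lie at chr10:60778358-60778477, chr5:69167030-69167149, chr15:59105026-59105145, chr16:23678769-23678888 and chr2:26785936-26786055 on the plus strand and at chr10:128126424-128126543 on the minus strand. In CCNB2 and PLK1 the CHR letters began 29 bases before the start, and in CENPA 18 bases before. CDK1 had CHR letters at 69 and 13 bases before the start. In MKI67 a CHR match and an inverted CCAAT match share letters, so that they appear as 1 capital run. CCNB1 had a pair of CCAAT matches and no CHR match in its window.

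CHR letters were found in 37 of the 47 windows (78.7%), against 9.94% of the windows of 10385 other tested genes and 16.3% of all 27305 windows. CCAAT was found in 36 (76.6%), against 37.2 and 35.8%. Both stood together in 30 (63.8%), against 4.26 and 6.46%. The matches were also placed alike, with CHR letters within 50 bases of the start in 31 members (66.0%, against 2.89% of other tested genes) and CCAAT in the 100 bases before it in 33 (70.2%, against 22.6%). CENPE, KIF2C, CKAP2 and MYBL2 had neither. Genes that were called and genes that were not had CHR letters about as often, in 81.3% of 16 and 77.4% of 31 windows. These are matches of letters and were not tested as binding sites.

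Per kilobase of canonical transcript, WT levels of the members ran from 9.10 to 101 CPM per kb with a median of 36.7, against a median of 7.86 over all tested genes. Their transcripts had a median length of 3.10 kb and a GC content of 43.1%, against 3.12 kb and 47.9%. After trends with GC content and length were removed from every library, 16 members were called higher (14.9% of all tested genes) and 1 lower (PRC1, where 14.4% of all tested genes were lower). CDK1, CDC25C, MAD2L1, CENPF and NCAPG were no longer called, and INCENP and CDC20 were added. With the replicate block as well, 26 were higher and 3 lower (NUSAP1, PRC1 and SMC2), where 18.9% of all tested genes were higher and 18.1% lower. Since THUMPD1 serves tRNA for leucine, leucine codons were also counted. UUA, UUG, CUA and CUU made up a median of 61.5% of the leucine codons of the members (12.5% in INCENP to 87.1% in ECT2), against 41.7% over 12618 tested coding genes, and 40 of the 55 were above that median. The median was 63.6% for called and 51.9% for uncalled members, but over the 55 members, which are not independent replicates, the share was only weakly related to the log2 fold change (Pearson r 0.14, a description).

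The members lie on 20 chromosomes. Tested genes within 2 Mb of a called member had median log2 fold changes of −0.072 to 0.12 around the 18 called members with at least 5 such neighbours, and only AURKA had a neighbour median above 0.1. Of 52 members with enough neighbours, 44 lay above their neighbour median. PLK1 and KIF22 lie on the short arm of chromosome 16, where the median over 407 tested genes was −0.28 on the log2 scale, but their neighbours had medians of 0.012 and −0.039. In all, 30 members overlap another annotated gene, 26 of them a gene on the opposite strand. Whether RSEM counted by strand is not given in the sources used here.

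The lists of other mitosis genes, 125 in all and all tested, had calls at or below the shares of all tested genes without the block. Among them 16 were called higher (12.8%, against 13.7% of all tested genes) and 10 lower (8%, against 13%), with a median log2 fold change of 0.033. With the replicate block these counts were 24 (19.2%, against 18.4%) and 14 (11.2%, against 16.7%). The counts of the single lists are small and are given as a description, and nothing is read from those near these shares. Of 30 other centromere and kinetochore genes, 8 were higher (26.7%) and 1 lower (3.33%). HJURP, the chaperone that loads CENPA, was at 43.8, 46.6 and 43.5 CPM in WT and 55.4, 53.4 and 53.4 CPM in THUMPD1 KO (log2 fold change 0.28, SE 0.049, adjusted p = 0.00218 by limma-voom), and CENPL and PMF1, both kinetochore subunits, rose by 0.30 and 0.29 on the log2 scale, although PMF1 shares its locus with a readthrough transcript and the 17 neighbours of CENPL had a median of 0.18. HJURP thus rose with CENPA, and its genotypes did not overlap. CENPM was the lower one (log2 fold change −0.22), in a stretch of chromosome 22 where 58 neighbours had a median of −0.30.

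Of 19 APC/C subunits and regulators, 3 were higher (15.8%, near the share of all tested genes) and 1 was lower (5.26%, against 13% of all tested genes). UBE2S, which extends ubiquitin chains on APC/C substrates, rose by 0.28 on the log2 scale and FZR1 (CDH1), the activator used after CDC20, by 0.17, and ANAPC4 fell (log2 fold change −0.18). Of 30 other spindle, centrosome and cytokinesis genes, 3 were higher (10%) and 2 lower (6.67%), both below the shares of all tested genes, among them CKAP2L (0.21) and TACC3 (0.15), which rose, and HAUS4 (−0.34), which fell. Of 17 other condensin and cohesin genes, 0 were higher and 2 were lower (11.8%, near the 13% of all tested genes). These were the condensin II subunit NCAPH2 (−0.32, with 29 neighbours on chromosome 22 at a median of −0.33) and the cohesin subunit STAG2 (−0.15). Of 14 DREAM and MuvB genes, TFDP1 rose (0.17) and E2F5 fell (−0.16), 7.14% each way and below the shares of all tested genes.

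Of 15 other CDK regulators, 1 was higher (6.67%, against 13.7% of all tested genes) and 3 were lower (20%, against 13%). CDKN1A (p21), an inhibitor of cyclin-dependent kinases and a target of p53, was at 7.26, 7.30 and 8.42 CPM in WT and 17.4, 14.99 and 16.9 CPM in THUMPD1 KO (log2 fold change 1.10, SE 0.093, adjusted p = 2.34e-05 by limma-voom), a doubling from a low level while CDK1 and both B-type cyclins also rose. PKMYT1, the kinase that places inhibitory phosphates on CDK1, was at 60.6, 53.7 and 55.8 CPM in WT and 38.1, 35.01 and 39.2 CPM in THUMPD1 KO (log2 fold change −0.60, SE 0.058, adjusted p = 5.08e-05). PKMYT1 lies on the short arm of chromosome 16, where its 123 neighbours had a median log2 fold change of −0.35. CDK2 (−0.16) and CCNF (−0.20) were the other lower genes, and CCNF lies in the same arm among 132 neighbours with a median of −0.38.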

How the data were processed

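Total RNA of 6 HEK-293T libraries, extracted with Trizol, was depleted of ribosomal RNA and sequenced in paired-end mode with a stranded kit. Alignment by the authors used STAR and GRCh38, and gene-level values were obtained with RSEM. The deposited values are expected counts, estimates that need not be whole and are not scaled between libraries. Tool versions and the strand setting of the counting are not given in the sources used here.

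Groups and replicate numbers came from the sample labels. The members and lists were chosen with earlier results of these data known. CPM was computed from total counts. A gene was kept if 3 or more of the 6 libraries reached 1 CPM, and counts were quantile normalized and fitted with voom and limma 3.58.1 (R 4.3.3) with genotype as the only term, after the methods of the study. Tests were two-sided, with Benjamini-Hochberg adjustment over all genes tested and a threshold of 0.05. A fold change is THUMPD1 KO minus WT on the log2 scale. At these depths 3 counts stand for 0.0680 to 0.0931 CPM.

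The correlation of deviations from the genotype means was 0.299, 0.366 and 0.135 for libraries with numbers 1, 2 and 3 (9872 genes, which are not independent replicates). It was −0.369 to 0.0834 for different numbers, and the numbers were taken to pair the libraries. Deviations from a mean of 3 libraries sum to 0, so low values for different numbers are partly built in. What the numbers mark is not stated. Alternatives were TMM library sizes, library sizes alone, 3 other CPM filters, sample quality weights, the replicate block, removal of trends along GC content and length (natural splines, 5 degrees of freedom) without and with the block, each library left out, edgeR 4.0.16 and DESeq2 1.42.0 on rounded counts, and an adjusted p under 0.01. The fit was tested on simulated data.

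Positions, overlaps, lengths and codons came from GENCODE 44 on GRCh38, another release than the one the methods name for the counting, and promoters from RefSeq (1 window per gene, nearest to the canonical start). Members called by limma-voom, with CDK1, CCNB1, PLK1, AURKB, BUB1, CDC20, CENPA, TOP2A, MKI67, FOXM1 and MYBL2, were given in every library, the other members by log2 fold change, and at most 3 called genes with the smallest adjusted p per other list. CENPE, PRC1, CENPM, CDC23 and CCNF were described further after their values were seen. Some cell type markers are not reported here.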

Additional observations from a re-analysis of the deposited data

How the results depend on the processing

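Across the 17 alternative fits, 9 of the 19 called members (CCNB1, CCNB2, AURKA, BIRC5, CDCA8, BUB3, SPC25, SMC4 and MKI67) were called higher every time, and 45 to 50 members had a positive log2 fold change. The other 10 calls were lost in at least 1 fit, and the cause was not tested. The count of members called higher was 30 with the replicate block (18.4% of all tested genes). It was 10 at an adjusted p under 0.01, where the share of all tested genes called higher was not counted, so nothing is read from this count. With 1 library left out it ran from 11 (without KO replicate 2, 8.75% of all tested genes) to 19 (without KO replicate 1, 11.9%). The count called lower was 1 after removal of the GC and length trends and 3 with the replicate block added. All genes called were 2083 at an adjusted p under 0.01 and 2663 to 4245 with 1 library left out. The median log2 fold change of the members was 0.099 with TMM, 0.098 after removal of the GC and length trends, 0.099 with the replicate block added, 0.0999 by edgeR, 0.1005 by DESeq2 and 0.107 to 0.130 with 1 library left out. The replicate block moved the median only to 0.117, and the THUMPD1 call held in all fits. Every member had at least 688 counts in every library.

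Members near 0 changed sign, and these values carry no direction. After removal of the GC and length trends, without and with the replicate block, log2 fold changes were −0.0151 and −0.0153 for CCNA2, 0.0225 and 0.0226 for AURKB, −0.0146 and −0.0146 for BUB1, −0.0334 and −0.0343 for NDC80, −0.00478 and −0.00650 for KIF18A, and −0.0601 and −0.0601 for HMMR. TMM gave −0.0113 for CDC25B and −0.00790 for HMMR, edgeR −0.00542 and −0.00791, and DESeq2 −0.00467 and −0.00760. Sample quality weights gave 0.00784 for AURKB, −0.0185 for KIF20B and −0.0222 for HMMR. With 1 library left out, values ran from −0.0571 to 0.0982 for CDC25B, −0.0434 to 0.00517 for AURKB, −0.0863 to 0.00565 for BUB1B, −0.0221 to 0.0413 for ESPL1, −0.00739 to 0.101 for NDC80, −0.0786 to 0.145 for KIF20B, −0.00208 to 0.0361 for KIF22 and −0.0562 to 0.0624 for HMMR.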
